A study of Mus musculus with 4 samples.

Results

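Integrins and cadherins are the main receptors by which cells hold on to matrix and to each other, and their genes were followed in cells sorted by flow cytometry from mouse fetal liver and from adult bone marrow. The genes were taken by symbol: every gene label of the deposited table that reads Itga with a suffix, Itgb1 to Itgb8, or Cdh with a number. This gave 49 genes of 33465 labelled ones, 26 of integrin subunits and 23 of cadherins. The labels of the table do not stand beside their own values and were placed again, and 40 of the 49 genes could be tied to a value (22 integrin and 18 cadherin genes). The other 9 are treated as not measured: Itga3, Itga7, Itgb5, Itgb6, Cdh1, Cdh7, Cdh15, Cdh18 and Cdh22. All 40 placed genes had a mean over the groups of at least 10 normalized reads.

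Fetal liver and bone marrow had 2 libraries each, from C57BL/6 mice, made with a low-input cDNA kit from sorted primary cells. The bone marrow is labelled adult, and neither the stage of the fetuses, the age of the adults nor the markers used for the sort are given in the sources used here. The series concerns a niche of blood stem cells along the portal vessels of the fetal liver. It is not stated whether each library came from its own animals, so the p-values rest on a spread between libraries that may be technical.

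An integrin is a pair of an alpha and a beta subunit that crosses the membrane: its outer part binds matrix or a receptor on another cell, and its inner part is tied to actin through talin, kindlin and vinculin. Beta1 pairs with most alpha subunits, beta2 is restricted to white blood cells, and alphaV serves the beta subunits that bind the RGD motif of fibronectin and vitronectin. Classical cadherins bind the same or a related cadherin on the neighbouring cell and hold actin through beta-catenin and alpha-catenin. In blood-forming organs, beta1 integrins with alpha4 or alpha5 are known for holding stem cells to fibronectin and VCAM-1 of the niche.

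Depth was low for many of these genes. Over the features whose means do not exceed 10000, the bone marrow libraries held 858720 and 223361 reads and the fetal liver libraries 2546089 and 868246, and they are called the deeper and the shallower library of each group. A normalized read is a read count divided by the authors' size factor of its library. 1 read was worth 0.676 and 2.86 normalized reads in the deeper and shallower bone marrow library and 0.379 and 1.19 in those of fetal liver. The placed genes had 2 to 42 reads in the shallower bone marrow library.

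By the authors' test, 3 of the 40 placed genes were higher in fetal liver, Itgb1, Cdh11 and Itga1, and 1 was lower, Itgb4. A gene is called here where the authors' deposited table gives it an adjusted p under 0.05. Over all 35605 features with reads, 4.12% were called higher and 0.129% lower. Of the 13248 placed genes with a mean of at least 10, as all 40 had, 1298 were called higher and 27 lower. The counts of 3 and 1 in 40 are to be read against these shares, above all against the latter. Without adjustment, at an authors' p under 0.05, 9 of the 40 were higher and 2 lower, against 8.69% and 2.4% of all features. Those shares include many features with few reads, and the shares among features with a mean of at least 10 were not counted. The 9 and 2 are therefore not set against genes of like level. The median log2 ratio of fetal liver to bone marrow was -0.0014 over the placed genes, with 20 above and 20 below 0. It was -0.19 over all 30884 features with reads in both groups and 0.11 over the 16492 of these with a mean of at least 10. The placed genes thus differed among themselves from a ratio of 15.96 for Itgb1 down to 0.223 for Itgb4 in the authors' deposited table.

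In 13 of the 40 genes every fetal liver library exceeded every bone marrow library, in 14 it was the reverse, and the groups overlapped in 13. Among features whose mean reaches 10 these shares were 37.3% above and 26.4% below. A second test, limma on reads recovered for single libraries with Benjamini-Hochberg adjustment, called 9 genes higher and 3 lower, against 19.2% and 2.87% of 16501 features. The 9 were Itgb1, Cdh11, Itga1, Itga8, Cdh2, Cdh19, Cdh10, Itga6 and Itga4, and the 3 were Itgb4, Itga2b and Itgae. Directions depend on the scale. With reads scaled by library totals in place of the authors' size factors, limma called 1815 features higher and 2954 lower, against 3172 and 474. The median log2 fold change of the 16501 features, called the all-feature median below, moved from 0.11 to -0.58. On that scale 5 of the placed genes were higher (Itgb1, Cdh11, Itga1, Itga8 and Cdh2) and 14 lower.

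**Figure D1:**
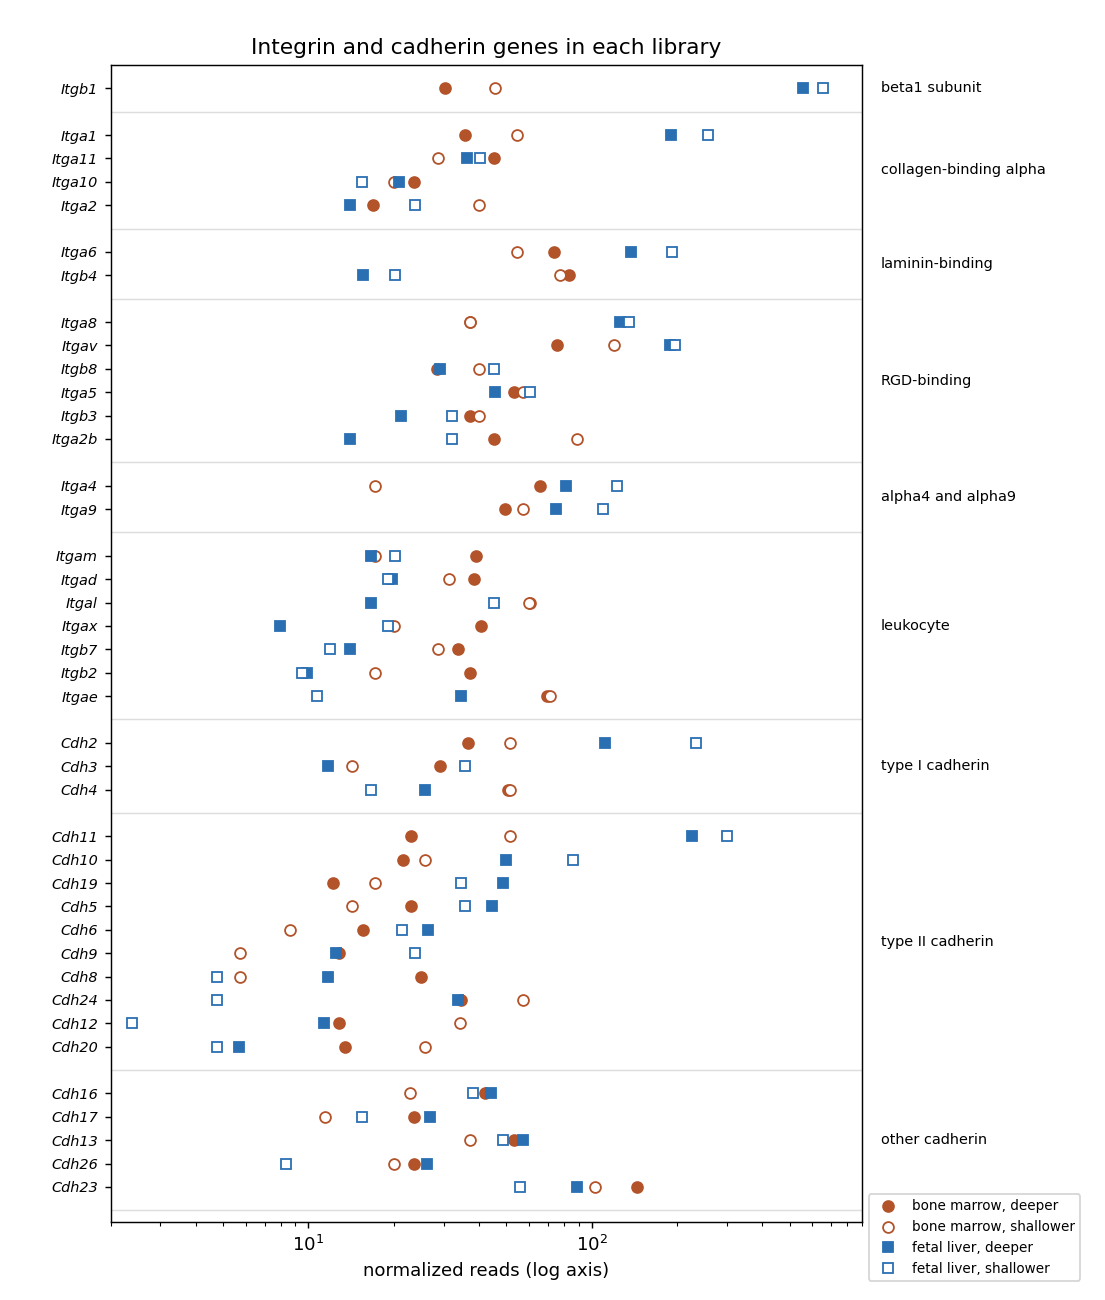
Normalized reads of the 40 placed integrin and cadherin genes in each of the 4 libraries on a log axis, with circles for bone marrow, squares for fetal liver, filled symbols for the deeper and open ones for the shallower library of a group. Itgb1 stands alone at the right, with 558 and 658 in fetal liver, and in 6 of the 7 leukocyte subunits both fetal liver symbols lie to the left of both bone marrow symbols.

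Itgb1, the beta subunit shared by most integrins, was the most abundant of the placed genes in fetal liver. It stood at 30.4 and 45.7 normalized reads in the deeper and shallower bone marrow library, from 45 and 16 reads, and at 558 and 658 in the fetal liver libraries, from 1472 and 553 reads. The lower fetal liver library was thus far above the higher bone marrow library. The means in the authors' deposited table were 38.1 and 608, a fold of 15.96 (authors' adjusted p = 6.14e-11). The limma log2 fold change was 3.98 ± 0.45 (SE). Leaving out each library in turn gave folds from 13.3 to 19.99.

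Per length, Itgb1 also led. With the authors' means divided by the exonic length of the gene in kb, it had 148.9 normalized reads per kb in fetal liver and 9.33 in bone marrow. The next genes per kb in fetal liver were Cdh11 at 29.6, Cdh2 at 21.4, Itga6 at 18.3, Itgav at 17.9 and Itga8 at 17.7. In fetal liver Itgb1, Cdh11 and Cdh2 were above 20.4, the 90th percentile of all 25983 placed genes with reads. In bone marrow only Itgae at 15.4 and Cdh24 at 13.1 normalized reads per kb were above that percentile, which was 13 there. Those percentiles include many genes with few reads. Over placed genes with a mean of at least 10 the 90th percentile was 31.9 in fetal liver, which only Itgb1 passed. In bone marrow it was 11.9 there, which Itga2b at 12.3 also passed. The median level in bone marrow was 5.96 per kb over the 40 genes and 5.56 over all placed genes, and in fetal liver 4.83 and 4.22. Over placed genes with a mean of at least 10 the medians were 6.25 in bone marrow and 6.83 in fetal liver, both above those of the 40 genes. In bone marrow the integrin and cadherin genes therefore lay close to the middle of all genes.

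**Figure D2:**
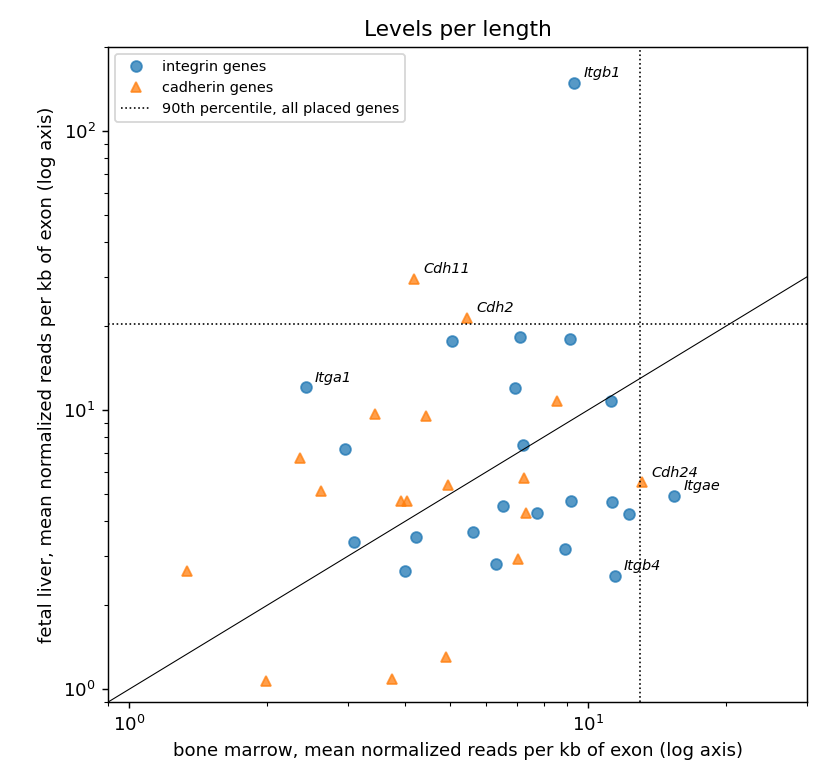
Mean normalized reads per kb of exon in bone marrow (x, log axis) and fetal liver (y, log axis) for 22 integrin and 18 cadherin genes, with the line of equal levels and dotted lines at the 90th percentile of all placed genes. Itgb1 at 148.9 and Cdh11 at 29.6 per kb in fetal liver lie far above the line of equal levels, while Itgae and Cdh24 pass the percentile in bone marrow.

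The promoters of Itgb1 and Itga1, the integrin subunits called higher, are shown beside that of Itgam, a subunit of myeloid cells whose promoter is known in human cells as a target of the blood cell factor PU.1. The sequences are those of RefSeq on build GRCm38.p6, from 250 bases before to 50 after the gene's start, and 31 of the 49 genes had one. They lie at chr8:128685404-128685703 on the + strand for Itgb1, chr13:115101915-115102214 on the - strand for Itga1 and chr7:128062390-128062689 on the + strand for Itgam. Capitals mark GAGGAA, the core bound by PU.1 and related ETS factors, and GGGCGG, the GC box bound by SP1, on either strand.
Itgb1: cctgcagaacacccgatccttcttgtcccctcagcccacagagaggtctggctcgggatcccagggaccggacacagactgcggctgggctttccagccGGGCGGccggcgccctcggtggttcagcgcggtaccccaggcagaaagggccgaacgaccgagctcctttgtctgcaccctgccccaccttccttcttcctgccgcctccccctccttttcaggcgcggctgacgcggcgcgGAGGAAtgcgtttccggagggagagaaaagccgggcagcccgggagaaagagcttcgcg
Itga1: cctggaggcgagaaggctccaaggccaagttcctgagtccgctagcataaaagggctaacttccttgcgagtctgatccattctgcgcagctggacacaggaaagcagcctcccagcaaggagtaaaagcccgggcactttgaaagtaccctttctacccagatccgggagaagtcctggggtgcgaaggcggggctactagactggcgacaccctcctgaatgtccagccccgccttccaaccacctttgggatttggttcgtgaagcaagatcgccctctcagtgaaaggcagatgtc
Itgam: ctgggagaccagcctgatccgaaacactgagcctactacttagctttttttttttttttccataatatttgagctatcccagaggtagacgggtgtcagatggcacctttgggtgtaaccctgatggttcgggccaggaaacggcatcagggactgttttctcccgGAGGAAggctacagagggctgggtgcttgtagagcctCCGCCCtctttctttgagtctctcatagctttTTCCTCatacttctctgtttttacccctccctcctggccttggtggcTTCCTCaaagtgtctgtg
The Itgb1 promoter held 1 GAGGAA and 1 GGGCGG in 300 bases, that of Itga1 held 0 of either, and that of Itgam held 3 and 1. CG pairs numbered 27, 12 and 6 in the same order. Of all 32851 promoters of this length, 28.3% held GAGGAA and 35.7% held GGGCGG, and the share with both was not counted. Most promoters thus lack GAGGAA and most lack GGGCGG, and the Itga1 window lacks both. These matches describe the letters of the windows.

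The alpha subunits that pair with beta1 were higher in part. Of 12 such genes 10 were placed, 6 had both fetal liver libraries above both bone marrow libraries, and the other 4 overlapped. Of features whose mean reaches 10, 37.3% were above. The authors' test called 1 of them, Itga1, against 4.12% of all features with reads and 1298 of 13248 placed genes with a mean of at least 10. Limma with Benjamini-Hochberg adjustment called 4, Itga1, Itga8, Itga6 and Itga4, against 19.2% of features whose mean reaches 10. Their median log2 ratio was 0.88, and 0.17 with reads scaled by library totals, against an all-feature median that moved from 0.11 to -0.58.

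Among collagen-binding alpha subunits, Itga1 was higher. Itga1, the subunit that with beta1 binds collagen type IV of basement membranes, stood at 35.8 and 54.3 normalized reads in bone marrow and 191 and 258 in fetal liver, deeper library before shallower. Its means in the authors' deposited table were 45.1 and 224.7, a fold of 4.99 (authors' adjusted p = 0.000892). Limma gave a log2 fold change of 2.31 ± 0.42, and the fold lay between 4.14 and 6.28 when a library was left out. The related Itga2, Itga10 and Itga11 were not called by either test and their groups overlapped. In the authors' deposited table their folds were 0.664, 0.831 and 1.040. Itga2, the collagen type I receptor of platelets and epithelia, had 16.9 and 40.03 normalized reads in bone marrow and 14.0 and 23.8 in fetal liver.

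Itgb4 and Itga6, which together form the laminin receptor of hemidesmosomes, were placed on opposite sides. Itgb4 stood at 83.1 and 77.2 normalized reads in bone marrow, from 123 and 27 reads, and at 15.5 and 20.2 in fetal liver, from 41 and 17 reads. The groups were well apart. In the authors' deposited table the means were 80.2 and 17.9, a fold of 0.223 (authors' adjusted p = 0.0227), and limma gave a log2 fold change of -2.11 ± 0.42. This direction rests on the placement of a single label. The label was moved by 22 features, and all of the 20 features nearest to its place were higher in fetal liver. With identifier order alone, without gene structure, 96.3% of the posterior of Itgb4 lay on features called higher and 3.68% on features called lower. For Itgb1, Cdh11 and Itga1 the 20 nearest features were all higher too, so a small error of placement would change their values and not their direction.

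Itga6 had 73.6 and 54.3 normalized reads in bone marrow and 137.9 and 192.6 in fetal liver, so the libraries did not overlap. It was 2.58-fold higher in the authors' deposited table without passing the authors' threshold (adjusted p there 0.403). With limma and Benjamini-Hochberg adjustment its log2 fold change of 1.35 ± 0.41 passed (adjusted p = 0.0278), and it no longer did without either fetal liver library (adjusted p = 0.0629 and 0.190 without the deeper and the shallower). Itga3 and Itga7, the other laminin-binding alpha subunits, were not placed.

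Of the RGD-binding subunits 6 of 8 were placed and none was called by the authors' test, with 2 higher at an unadjusted p under 0.05. Among all features with reads, 4.12% were called higher and 0.129% lower, and 8.69% were higher at that unadjusted p. Itga8, the nephronectin receptor of mesenchymal cells, stood at 37.2 normalized reads in both bone marrow libraries and at 125.4 and 136 in fetal liver. Its fold was 3.51 in the authors' deposited table (with an adjusted p of 0.0661), and it passed when the authors' p-values were adjusted again without the features whose mean is under 10 (0.031). Limma with Benjamini-Hochberg adjustment gave 1.78 ± 0.39 (adjusted p = 0.00333), and the call held without each library in turn. Itgav, the alphaV subunit, stood at 75.7 and 120.1 in bone marrow and 189.1 and 196.2 in fetal liver, with a difference of 1.97-fold in the authors' deposited table (with an adjusted p of 0.277), and limma gave 1.01 ± 0.44 (adjusted p = 0.111). Both genes had higher levels in each fetal liver library than in each bone marrow library, and Itgav did not pass either test.

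Itga5, which with beta1 forms the classical fibronectin receptor, did not differ beyond the spread of its libraries. It had 53.4 and 57.2 normalized reads in bone marrow and 45.5 and 60.6 in fetal liver, and limma gave a log2 fold change of -0.07 ± 0.40. Itgb8, a partner of alphaV that activates TGF-beta, overlapped likewise, with a fold of 1.09 in the authors' deposited table. The platelet integrin is made of Itga2b and Itgb3. Itga2b had 45.3 and 88.6 in bone marrow and 14.0 and 32.1 in fetal liver, and its limma log2 fold change was -1.53 ± 0.49 (Benjamini-Hochberg adjusted p = 0.0353, but 0.711 by the authors' deposited table). The limma call was lost without the shallower bone marrow library (adjusted p = 0.262) and without the deeper fetal liver library (adjusted p = 0.238). Itgb3 had 37.2 and 40.03 in bone marrow and 21.2 and 32.1 in fetal liver and passed no test. The 5 of 6 megakaryocyte markers that were placed summed to 57.4 and 65.8 normalized reads in bone marrow and 32.6 and 67.8 in fetal liver, with none called. None had a group mean of 0, but Gp9 had 0 reads in the deeper fetal liver library. The part of the megakaryocyte markers in the result was not tested.

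Itga4 and Itga9, which bind VCAM-1 with beta1, were higher in both fetal liver libraries. Itga4 had 65.5 and 17.2 normalized reads in bone marrow, the latter from 6 reads, and 81.1 and 122.5 in fetal liver. Its bone marrow libraries lay further apart than the deeper libraries of the groups. Its fold of 2.46 did not pass in the authors' deposited table (with an adjusted p of 1), and limma with Benjamini-Hochberg adjustment gave 1.53 ± 0.52 (adjusted p = 0.0459). Without the shallower bone marrow library the limma value was 0.60 (adjusted p = 0.339), and without the shallower fetal liver library 1.24 (adjusted p = 0.170). Itga9 had 49.3 and 57.2 in bone marrow and 74.7 and 109.4 in fetal liver, with a fold of 1.73 by the authors' deposited table, and passed neither test.

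The subunits classed here as those of white blood cells had lower means in fetal liver in 7 of 7 genes, and the authors' test called none of them. These were Itgb2, the common beta subunit of leukocytes, its partners Itgal, Itgam, Itgax and Itgad, and Itgae and Itgb7, which pair with each other in tissue lymphocytes. The count depends on how the class was drawn. Itga4, which blood cells also carry, was classed with Itga9 and had a higher mean in fetal liver, with a fold of 2.46. The median log2 ratio of the 7 was -1.17, and -1.93 with reads scaled by library totals. In 6 of the 7 both fetal liver libraries lay below both bone marrow libraries, Itgam being the exception, beside 26.4% of features whose mean reaches 10. Without the deeper bone marrow library the fold of Itgam turned to 1.08, so that 7 of 7 no longer held, and that of Itgb2 moved from 0.357 to 0.564. Without a fetal liver library the fold of Itgae moved from 0.320 to 0.152 (deeper) or 0.489 (shallower), and without the shallower one that of Itgal was 0.276 and that of Itgax 0.263. In bone marrow the means of the 7 lay between 27.2 and 70.5 and in fetal liver between 9.68 and 30.9 in the authors' deposited table.

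Itgb2 was the only one with an unadjusted p under 0.05 (0.0452, or 0.426 adjusted, in the authors' deposited table). It had 37.2 and 17.2 normalized reads in bone marrow, the latter from 6 reads, and 9.85 and 9.51 in fetal liver. Itgae was the only one called by limma with Benjamini-Hochberg adjustment, at -1.81 ± 0.50 (adjusted p = 0.0166), and the call was lost without the shallower fetal liver library (adjusted p = 0.200). It had 69.6 and 71.5 normalized reads in bone marrow and 34.5 and 10.7 in fetal liver. Itgam, the alpha subunit of the complement receptor of myeloid cells, had 39.2 and 17.2 in bone marrow and 16.7 and 20.2 in fetal liver, so its groups overlapped. Itgal, the alpha subunit of LFA-1, had 60.8 and 60.0 in bone marrow and 16.7 and 45.2 in fetal liver.

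Markers of white blood cells had mostly lower means in fetal liver, and few were called. Of 7 neutrophil markers 6 were placed, and their sum was 376 and 100.1 normalized reads in bone marrow and 23.9 and 41.6 in fetal liver. The authors' test called 1 lower and limma 2. None had a group mean of 0, but S100a8 had 0 reads in the shallower fetal liver library and Camp 0 in the deeper one. The 6 general leukocyte markers, of which 5 had a lower and Cd52 a higher mean in fetal liver, summed to 141.9 and 117.2 in bone marrow and 101.6 and 78.5 in fetal liver, with none called by either test and a median log2 ratio of -0.49. Olfactory receptor genes, taken after the data had been seen as genes that neither organ is known to use, had a median log2 ratio of -1.16 over 529 placed genes with reads in both groups, about that of the leukocyte subunits. Those genes were lower than the subunits, with median levels of 3.46 and 1.19 in bone marrow and fetal liver, which are only a few reads. The placement of their labels drew on the kind of gene name and on level. Their ratio is therefore no independent reference for the subunits. The part of these markers in the result was not tested. Fewer cells of a type and less RNA per cell cannot be told apart in such bulk samples.

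**Figure D3:**
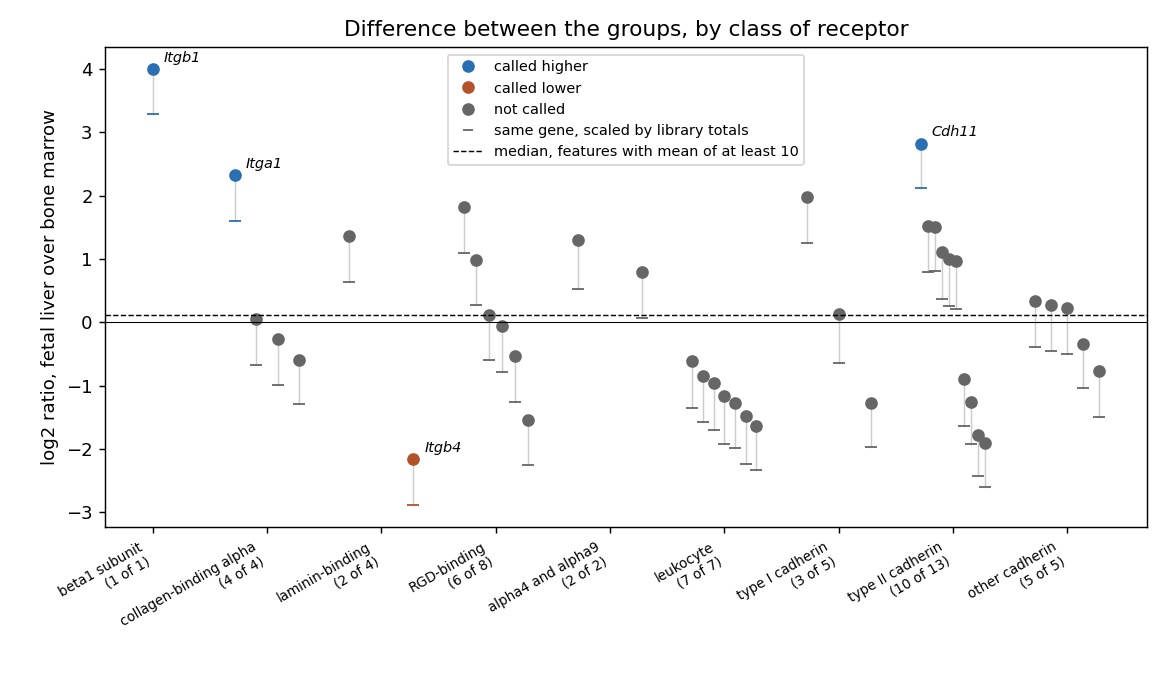
Log2 ratio of the mean in fetal liver to that in bone marrow for each placed gene by class of receptor (placed of all genes of the class in parentheses), with dots for the authors' scaling, dashes for scaling by library totals and a dashed line at the median of 0.11 over features whose mean reaches 10. Itgb1, Itga1 and Cdh11 are above 2 and Itgb4 is below -2, and the 7 leukocyte subunits are all below 0 under both scalings.

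The cadherins were split. Of 18 placed genes 11 had a higher and 7 a lower mean in fetal liver, with a median log2 ratio of 0.25, and of -0.48 with reads scaled by library totals. The authors' test called 1, Cdh11, and limma with Benjamini-Hochberg adjustment 4, Cdh11, Cdh2, Cdh19 and Cdh10, all higher. Beside these counts, the authors' test called higher 4.12% of all features with reads and 1298 of 13248 placed genes with a mean of at least 10. For limma that share was 19.2% of features whose mean reaches 10.

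Cdh11, the cadherin of mesenchymal cells, had 23.0 and 51.5 normalized reads in bone marrow, from 34 and 18 reads, and 226.6 and 299.6 in fetal liver. The limma log2 fold change was 2.88 ± 0.45. Its 7.07-fold difference in the authors' deposited table depended in size on the bone marrow libraries. The fold was 11.45 without the shallower one and 5.11 without the deeper one. Markers of stromal and mural cells were called higher in part. The 6 placed of 7 stromal markers summed to 209 and 495 in bone marrow and 2053 and 4963 in fetal liver, with 2 called higher, and the 7 placed of 8 mural markers to 224 and 254 and to 1100 and 2959, with 3 called higher. The other way, Lepr of the stromal and Des of the mural list had both fetal liver libraries below those of bone marrow without being called. The 5 stellate cell markers summed to 185 and 217 in bone marrow and 472 and 662 in fetal liver, with 1 called higher. Among them Lrat went the other way, with 37.8 and 37.2 in bone marrow and 9.85 and 26.2 in fetal liver, and was called by neither test. The bone marrow libraries stood apart in the 5 osteoblast markers, which summed to 262 in the deeper and 2390 in the shallower one, and to 59.9 and 269.9 in fetal liver, with none called by the authors' test and 2, Bglap and Alpl, lower by limma. None of these markers was at 0 in either group, and their part in the levels of Itgb1, Itga1, Itga8 and Cdh11 was not tested.

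Of the type I cadherins, Cdh2, or N-cadherin, stood at 36.5 and 51.5 normalized reads in bone marrow and at 111.4 and 234.2 in fetal liver. It was 3.93-fold higher in the authors' deposited table without being called (authors' adjusted p = 0.144), and limma with Benjamini-Hochberg adjustment gave 1.87 ± 0.44 (adjusted p = 0.00602). Without the shallower fetal liver library the limma value was 1.34 (adjusted p = 0.0889). Cells of the liver lineage are known to make Cdh2, and the 5 placed of 7 hepatoblast markers summed to 106.7 and 60.1 in bone marrow and 658 and 614 in fetal liver, with 2 called higher and none at 0. Their part in the result was not tested. Cdh4, or R-cadherin, had 50.7 and 51.5 in bone marrow and 25.8 and 16.7 in fetal liver, with a limma log2 fold change of -1.26 ± 0.44 (Benjamini-Hochberg adjusted p = 0.052). Cdh3, or P-cadherin, overlapped between the groups, with a fold of 1.09 in the authors' deposited table. Cdh1, or E-cadherin, was not placed.

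Of the type II cadherins, 10 of 13 were placed, 5 with both fetal liver libraries above and 3 with both below those of bone marrow. The shares were 37.3% and 26.4% of features whose mean reaches 10. Cdh19, known from precursors of Schwann cells, had 12.2 and 17.2 normalized reads in bone marrow and 48.5 and 34.5 in fetal liver, and limma with Benjamini-Hochberg adjustment gave 1.44 ± 0.49 (adjusted p = 0.0461). Cdh10, known from brain, had 21.6 and 25.7 in bone marrow and 50.02 and 85.6 in fetal liver, with 1.43 ± 0.43 by limma (Benjamini-Hochberg adjusted p = 0.0259). Neither was called in the authors' deposited table (with an adjusted p of 0.374 and 0.384). The limma call of Cdh19 was lost without the deeper bone marrow library and without either fetal liver library (adjusted p = 0.153, 0.21 and 0.0672), and that of Cdh10 without the shallower fetal liver library (adjusted p = 0.209).

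Cdh5, the VE-cadherin of endothelial junctions, had 23.0 and 14.3 normalized reads in bone marrow and 44.3 and 35.7 in fetal liver, a fold of 2.15 in the authors' deposited table that passed neither test. Of 7 endothelial markers 5 were placed, 3 with a lower and 2 with a higher mean in fetal liver, where Kdr and Tek overlapped between the groups. They summed to 243 and 217 in bone marrow and 128 and 151 in fetal liver, with none called by the authors' test, 1 lower by limma and none at 0. Their part in the level of Cdh5 was not tested. The lowest genes in fetal liver were Cdh20 and Cdh12, known from the nervous system. Cdh20 had 4.76 normalized reads in the shallower fetal liver library, from 4 reads, and 5.68 in the deeper, against 13.5 and 25.7 in bone marrow. Cdh12 had 11.4 and 2.38 in fetal liver against 12.8 and 34.3, and its fold changed from 0.20 to 0.54 when the deeper or the shallower bone marrow library was left out. Cdh6 and Cdh9 had higher means in fetal liver and Cdh8 and Cdh24 lower ones, and none of these passed a test.

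The remaining 5 cadherins were called by neither test. Cdh13, a cadherin held by a lipid anchor, Cdh16, known from kidney, Cdh17, known from intestine, and Cdh26 had overlapping libraries, and the authors' deposited table gives them folds of 0.789 to 1.27. Cdh23, a link protein of sensory hair cells, had the highest bone marrow mean of all 40 genes in the authors' deposited table, 123.8, against 72.5 in fetal liver. Its libraries stood at 144.6 and 102.9 in bone marrow and 89.05 and 55.9 in fetal liver. Per kb its bone marrow level was 7.31, so this rank does not hold per length.

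The genes that connect integrins to actin were higher in part. Of 21 such genes, all placed, the authors' test called 6 higher and none lower, limma with Benjamini-Hochberg adjustment 12 and 0, and 0 were lower at an authors' p under 0.05. By the authors' test the shares called higher were 4.12% of all features with reads and 1298 of 13248 placed genes with a mean of at least 10. By limma the share was 19.2% of features whose mean reaches 10. Their median log2 ratio was 1.62, and 0.88 with reads scaled by library totals. In the authors' deposited table the called genes were Vcl (vinculin, 9.95-fold, authors' adjusted p = 6.62e-05), Fermt2 (kindlin-2, 9.52-fold), Flna (filamin A, 8.90-fold), Lims1 (PINCH-1, 5.36-fold), Actn1 (alpha-actinin, 5.31-fold) and Parva (alpha-parvin, 3.99-fold). Fermt2 stood at 18.9 and 34.3 normalized reads in bone marrow and 234.6 and 272.3 in fetal liver, and limma gave 3.26 ± 0.42. The fold of Lims1 was 8.07 without the shallower bone marrow library and 4.01 without the deeper one. The forms known from blood cells, Fermt3 (kindlin-3) and Parvg (gamma-parvin), had folds of 0.578 and 0.436 in the authors' deposited table and were not called.

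The catenins, which tie cadherins to actin, had 1 of 7 members called higher and none lower. Also 0 were lower by limma and at an authors' unadjusted p under 0.05. The shares called higher were 4.12% of all features with reads and 1298 of 13248 placed genes with a mean of at least 10. Ctnna1, the alpha-catenin of most tissues, stood at 31.8 and 22.9 normalized reads in bone marrow and 250.1 and 222.3 in fetal liver. It was 8.65-fold higher in the authors' deposited table (with an adjusted p of 3.6e-05), and limma gave 3.08 ± 0.40. Ctnnb1, or beta-catenin, was 4.07-fold higher without passing (adjusted p 0.0879 by the authors' deposited table) and passed by limma with Benjamini-Hochberg adjustment at 2.18 ± 0.55 (adjusted p = 0.00957). Its fold was 7.64 without the shallower bone marrow library and 2.77 without the deeper one. The list's median log2 ratio of 0.76 became 0.02 with reads scaled by library totals, while the all-feature median moved from 0.11 to -0.58.

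Of 21 integrin ligand genes 19 were placed, and the authors' test called 7 higher and none lower. The shares were 4.12% and 0.129% of all features with reads, and 1298 and 27 of 13248 placed genes with a mean of at least 10. Limma called 0 lower, and 1, Npnt, was lower at an authors' unadjusted p under 0.05. In the authors' deposited table the called genes were Postn (periostin, 15.2-fold), Nid1 (nidogen, 13.7-fold), Fn1 (fibronectin, 13.05-fold), Mfge8 (10.6-fold), Emilin1 (8.58-fold) and the laminin chains Lamc1 (4.73-fold) and Lama2 (4.27-fold). Their median log2 ratio over the 19 was 1.27, and 0.54 with reads scaled by library totals. Mfge8, a ligand of alphaV integrins, stood at 21.6 and 14.3 normalized reads in bone marrow and 162.6 and 218.8 in fetal liver. The folds of Fn1 and Nid1 were 8.26 and 7.89 without the shallower fetal liver library. That of Postn was 30.6 without the shallower bone marrow library and 10.1 without the deeper one. Icam1, Icam2 and Madcam1, ligands of the leukocyte integrins, had folds of 0.922, 0.252 and 0.274 in the authors' deposited table, and none was called. Vcam1, the ligand of alpha4, stood at means of 30.9 and 74.5 in the authors' deposited table without passing (authors' adjusted p = 0.748). Its fold was 3.94 without the shallower bone marrow library and 1.47 without the shallower fetal liver library.

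**Figure D4:**
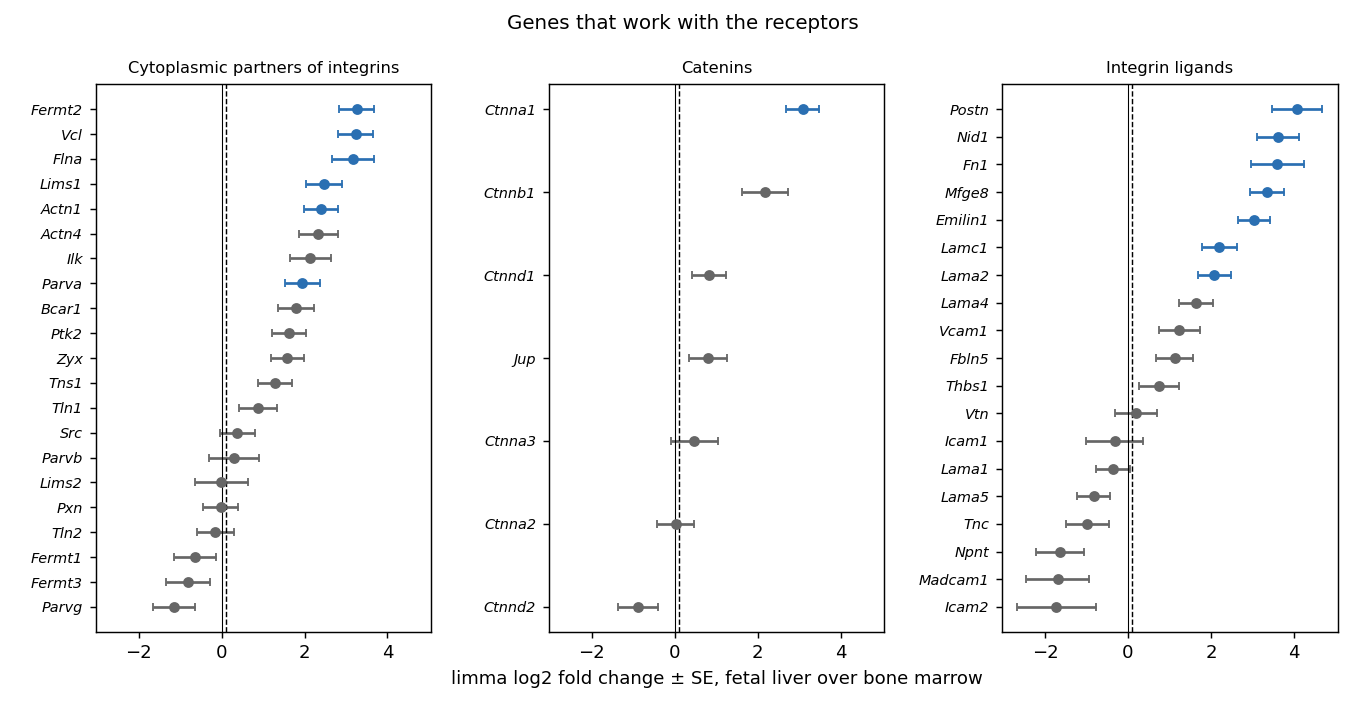
Limma log2 fold change with its standard error (x) for 21 genes that connect integrins to actin, 7 catenins and 19 integrin ligands, blue where the authors' adjusted p called the gene higher, with a dashed line at the all-feature median of 0.11. Fermt2, Vcl, Ctnna1 and Postn lie at 3 or more, and Parvg, Icam2 and Madcam1 lie below -1 without being called.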

How the data were processed

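RNA of sorted fetal liver and bone marrow cells was measured by sequencing in 2 libraries each, grouped by sample title. The submitters' processing notes name GSNAP, HTSeq, DESeq and build mm9, without versions or annotation. The deposited table gives each group's mean of normalized read counts as a signal, the ratio of the means as a fold, and the authors' p-value and adjusted p-value, per the file headers. The library kit is not stated to mark strand, so reads of a gene and of an overlapping antisense gene may not be told apart.

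The genes and lists were chosen with earlier results of these data known. Named are the placed genes called either way, placed genes with a mean of at least 10, and called members of lists of integrin adaptors, catenins and ligands.

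The table holds 33465 gene labels closed up over 37996 features sorted by p-value, of which 4531 have no label. Labels were placed by a hidden Markov model from identifier order among tied features (assumed, error rate 0.001) and a score. The score came from LightGBM 4.6.0, was bounded at 4 and was trained in 5 folds. It set gene structure (GENCODE M21), chromosome, promoter composition and the kind and prefix of the symbol against the values of a feature. Those values were its level in each library, both group means and the authors' p-value, so placement drew in part on the difference reported here. A gene was placed at a posterior of at least 0.95 on features with the same values, which held for 25983 of 32237 labels of tested features. Labels of the 40 genes moved by 2 to 2883 features, and a second random seed gave the same feature for all 40. On simulated labels of this comparison, 99.8% of 39587 placed labels were right, and 74 of 74 with the structure of an integrin or cadherin gene. The simulation took its gene structures from the placement, so these shares are upper estimates. Each gene takes its deposited values from the place its label was given.

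Whole reads per library were solved for from the means, which are sums of whole reads times a fixed worth per read. Up to a mean of 10000 the solution was unique for 37976 of 37976 bone marrow and 37971 of 37973 fetal liver means, and on simulated means all were split rightly. The 25 features above that mean hold 99.3% of the summed mean, may include entries that name no gene, and stayed out of library totals. Because the units are means and not counts, the authors' adjusted p is the main test, and limma 3.58.1 in R 4.3.3 (mean-variance trend, log2 of normalized reads + 1, features with a mean of at least 10, Benjamini-Hochberg adjustment) gives standard errors. Alternatives were other pseudocounts, filters, scaling, placements and leaving out each library. Levels per length use exonic lengths that may differ from the authors' annotation.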

Additional observations from a re-analysis of the deposited data

How the results depend on the processing

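Members called higher numbered 3 by the authors' adjusted p, 9 by limma and 9 at an unadjusted p under 0.05, and 3 or 4 under the other filters and placements. Members called lower numbered 1, against 3 by limma, 2 at an unadjusted p, and 0 with the labels as they stand or with identifier order only, where Itgb4 counts among the higher. The median log2 ratio of -0.0014 was -0.42 with labels as they stand, -0.27 with each label put at its likeliest feature, -0.73 with reads scaled by library totals, and -0.198 to 0.265 when a library was left out, beside an SD of 0.193 over 4 pairs of libraries. Limma calls higher numbered 9, against 5 with no minimum mean, 5 with library totals and 4 to 9 without a library, the lowest without the shallower fetal liver library (Itgb1, Cdh11, Itga1 and Itga8). Of limma calls lower there were 3, against 14 with library totals and 2 to 5 without a library. Cdh11, Itgb1, Itga1, Itga8 and Itgb4 kept their limma calls under all 8 settings, where without a library the lone one of its group is assumed to vary like the others. These settings kept every label at its place, so they do not bear on the placement on which the direction of Itgb4 rests. No limma value of the 12 genes it called changed sign, and the cause of the lost calls was not tested. Identifier order alone placed 3 of the genes, so the other values rest on the score of gene structure, names and levels. That setting was added after seeing the data, as was the second seed. No paired analysis was possible because the groups share only replicate number 2 and the libraries are not tied to numbers. Depth limits the shallower bone marrow library most, where 1 read is 2.86 normalized reads.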
